A study of Mus musculus with 12 samples.

Results

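The Ear genes encode the eosinophil-associated ribonucleases, the rodent branch of the RNase A superfamily to which the human eosinophil-derived neurotoxin and eosinophil cationic protein belong. They are small secreted proteins that cut RNA, and their genes arose by repeated duplication, so that neighbouring copies can be almost the same in sequence. Ear transcripts are best known from eosinophils, which store the proteins in their granules, and are also found in alveolar macrophages, some monocytes and other tissue phagocytes. The members described here were picked by gene symbol, with earlier results of these data known, and were all the genes whose symbol begins with Ear in the table of expression values: *Ear2*, *Ear3* and *Ear12*, 3 of 479 genes.

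RNA from the whole thymus of 12 mice aged 1 month was sequenced. The mice were 6 wild type animals (WT) and 6 animals lacking both Axl and Mertk (*Axl-/-Mertk-/-*), with 3 males and 3 females in each genotype. Axl and Mertk are receptor tyrosine kinases through which macrophages bind and engulf dying cells, and the comparison asks which transcripts of the thymus differ when both receptors are missing from every cell of the mouse. Both mutations were carried on a C57BL/6 background, and the WT and mutant lines were kept apart, so that genotype and breeding line cannot be told apart.

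The values are FPKM, which are fragments scaled to the length of the transcript and to the number of mapped reads. The steps between low FPKM values gave library depths of 18830000 to 24490000 reads in WT mice (median 23310000) and 19330000 to 23810000 reads in mutants (median 21320000). *Axl* checked the genotype labels, with 11.9 to 16.9 FPKM in WT mice and 1.92 to 2.45 FPKM in mutants. *Mertk* was not analysed here. None of the 11 listed thymocyte and thymic epithelial markers was among the 479 genes (0 of 11), so the tissue label was not checked. The table was small and unbalanced, with 296 of 479 genes lower in the mutant at an adjusted p under 0.05 (limma, 61.8%) and the rule that chose its genes not given in the sources used here. A p-value below therefore describes these 12 mice and is not evidence independent of that choice.

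*Ear2* (ENSMUSG00000072596.4) lies on the plus strand of chromosome 14, at chr14:44102654-44103534 of the mouse genome build GRCm38 (mm10). Its transcript in the GENCODE annotation has 719 bases in 2 exons, at chr14:44102654-44102719 and chr14:44102882-44103534. The coding part is 471 bases with the stop codon, between a 5′ untranslated part of 71 bases and a 3′ untranslated part of 177 bases. *Ear3* and *Ear12* had no entry under these symbols in the annotation used here, and their positions are not given. The coding part of *Ear2* was closest to that of *Ear10*, with 14 of 471 bases different (97.0% identity), and then to *Ear1*, with 20 of 468 aligned bases different (95.7%). *Ear6* shared 88.2% and *Rnase2a*, a gene of the same superfamily, 80.3%. *Ear14*, at 79.4%, and *Rnase2b*, at 78.85%, were further from *Ear2*.

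Stretches of 60 coding bases show how little separates *Ear2* from its 3 closest relatives here, which matters because each sequencing read covered 50 bases. The stretch of *Ear2* that differs most from *Ear10* lies in exon 2, at coding bases 272 to 331, counted from the A of the start codon (chr14:44103158-44103217). It is printed with the aligned bases of its relatives, whose capitals mark bases that differ from *Ear2*:
Ear2: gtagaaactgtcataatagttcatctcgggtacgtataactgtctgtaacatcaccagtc
Ear10: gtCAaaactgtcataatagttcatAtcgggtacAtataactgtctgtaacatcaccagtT
Ear1: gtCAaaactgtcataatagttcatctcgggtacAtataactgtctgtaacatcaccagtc
Ear6: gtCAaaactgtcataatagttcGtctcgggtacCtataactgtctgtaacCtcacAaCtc
*Ear10* differs here at 5 bases, *Ear1* at 3 and *Ear6* at 7. A read from this stretch can be told from the other genes only by these few letters.

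The stretch with the fewest differences from *Ear10* lies in the same exon, at coding bases 89 to 148 (chr14:44102975-44103034), and is shown because a read from it carries no letter that separates *Ear2* from *Ear10*:
Ear2: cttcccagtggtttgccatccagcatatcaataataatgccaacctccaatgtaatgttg
Ear10: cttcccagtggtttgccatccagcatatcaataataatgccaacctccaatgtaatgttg
Ear1: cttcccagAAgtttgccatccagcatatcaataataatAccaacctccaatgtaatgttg
Ear6: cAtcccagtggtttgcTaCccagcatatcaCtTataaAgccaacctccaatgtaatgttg
*Ear10* differs at 0 bases here, *Ear1* at 3 and *Ear6* at 6.

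Over the whole *Ear2* transcript, 278 of the 670 possible 50-base windows (41.5%) occurred unchanged in the transcripts of 5 other annotated genes. *Ear10* held 174 of them, *Ear1* held 158, the pseudogene *Ear-ps2* held 100, the pseudogene *Ear-ps9* held 68 and *Ear6* held 9, and one window can be held by several genes. The share was 45.7% among the 422 windows inside the coding part and 34.3% among the 248 windows that touch an untranslated part. *Ear3* and *Ear12* had no entry under these symbols and were not compared with *Ear2*, so the 41.5% covers other annotated genes only. A 50-base read from a shared window cannot be assigned to *Ear2* by its sequence. How such reads were counted was not given in the sources used here.

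**Figure D1:**
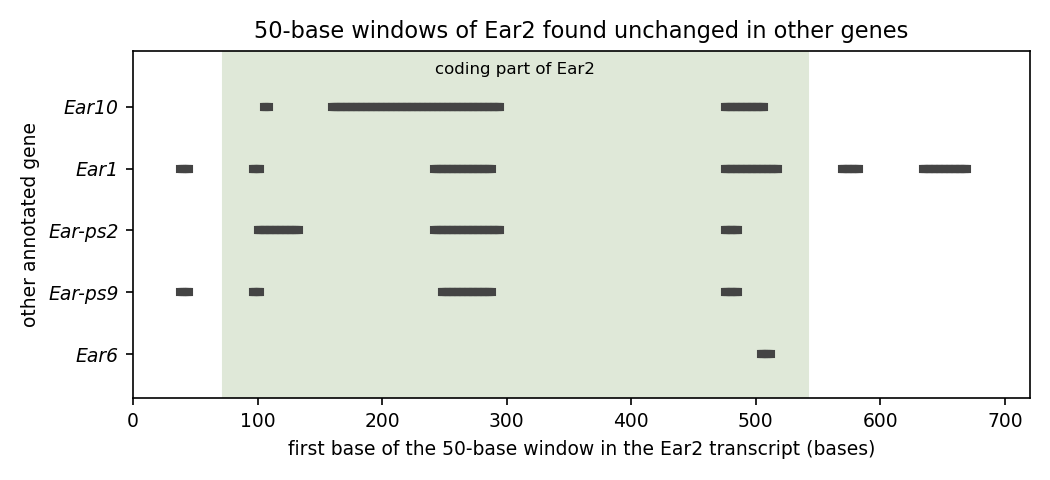
Starts of the 50-base windows of the Ear2 transcript (x axis, bases) that occur unchanged in each of 5 other annotated genes (y axis), with the coding part of Ear2 shaded. Ear10 shares most windows, 174 of 670, nearly all in a long run in the first part of the coding sequence and a shorter run near its end.

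*Ear2* was lower in *Axl-/-Mertk-/-* thymus than in WT thymus. Within each genotype and sex the mice are numbered 1 to 3 here, in the order of their animal numbers. WT males 1, 2 and 3 had 7.20, 8.86 and 10.8 FPKM, and WT females 1, 2 and 3 had 7.002, 8.32 and 8.59 FPKM. Mutant males 1, 2 and 3 had 4.22, 6.23 and 5.23 FPKM, and mutant females 1, 2 and 3 had 2.42, 2.86 and 6.17 FPKM. The highest mutant mouse was below the lowest WT mouse, so the genotypes did not overlap. Mutant females 1 and 2 were the lowest of all 12 mice, while mutant female 3 and mutant male 2 came closest to WT. The mean was 8.46 ± 1.36 FPKM in WT mice and 4.52 ± 1.64 FPKM in mutants (SD, n = 6 each), which is 53.5% of WT.

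*Ear3* and *Ear12* had the same deposited value, to the last digit, in 12 of 12 mice. They were the only such pair among the 114481 pairs of genes in the table, and they stand for 1 measurement here. *Ear2* equalled them in 0 of 12 mice. The shared value was 10.5, 12.2 and 15.2 FPKM in WT males 1, 2 and 3, and 9.98, 12.1 and 12.2 FPKM in WT females 1, 2 and 3. It was 6.02, 9.01 and 7.34 FPKM in mutant males 1, 2 and 3, and 3.49, 4.24 and 9.10 FPKM in mutant females 1, 2 and 3. Again the genotypes did not overlap, and again mutant females 1 and 2 were lowest and mutant female 3 and mutant male 2 closest to WT. The mean was 12.03 ± 1.84 FPKM in WT mice and 6.53 ± 2.37 FPKM in mutants (SD, n = 6 each), 54.3% of WT.

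**Figure D2:**
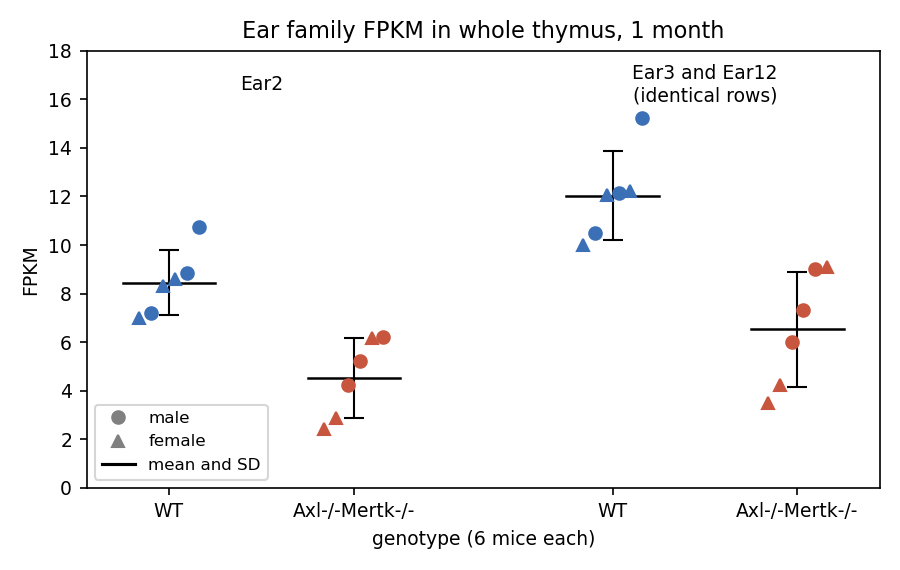
FPKM (y axis) of Ear2 and of the shared Ear3 and Ear12 value in each mouse, by genotype (x axis), with circles for males, triangles for females, and lines for the mean and SD of 6 mice. Mutant mice sit between 2.42 and 6.23 FPKM for Ear2, all below the WT mice at 7.002 to 10.8 FPKM, and between 3.49 and 9.10 FPKM for Ear3 and Ear12, all below the WT mice at 9.98 to 15.2 FPKM.

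On the deposited log2(FPKM + 5) scale, the difference between mutant and WT for *Ear2* was −0.51 (SE 0.11, 95% confidence interval −0.75 to −0.28, adjusted p = 0.00204 by limma with sex as a covariate, Benjamini-Hochberg over all 479 genes). For *Ear3* and *Ear12* it was −0.58 (SE 0.13, 95% confidence interval −0.86 to −0.30, adjusted p = 0.00248, same limma fit). An exact two-sided permutation test over the 924 ways to split 12 mice gave p = 0.00217 for each, the smallest it can give, and 0.00554 after adjustment over the table. The added constant of 5 is close to the size of the values and compresses their differences. With a constant of 0.1, the log2 differences were −0.96 for *Ear2* (adjusted p = 0.00089, limma) and −0.94 for *Ear3* and *Ear12* (adjusted p = 0.000973, limma).

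These calls were common in the table. Genotypes without overlap, lower in the mutant, occurred in 126 of 479 genes (26.3%), so the members' 3 of 3 stands beside a frequent outcome. The 3 are at most 2 measurements, and these 2 are not independent of each other. An adjusted p under 0.05 together with a log2 difference beyond 0.5 was rarer on the deposited scale, at 15 lower genes (3.13%). These 15 include the 3 members, which passed with all 12 mice in the fit. The constant added on this scale keeps weakly expressed genes from that size, however far they fall. A gene with the table's median level, 0.89 FPKM over the 12 mice, could not reach it even if absent from mutants. Passing this pair of thresholds thus depends on level as well as on the fall. Its rarity alone does not mark the members' fall as unusual. *Ear2* lay close to the size threshold and lost this pair of thresholds in 6 of the 12 fits that left out 1 mouse (without WT male 3, WT female 2, WT female 3, mutant male 1, mutant female 1 or mutant female 2, with log2 differences from −0.49 to −0.45) and in males alone (−0.44). *Ear3* and *Ear12* lost it in males alone (−0.50). With the constant of 0.1 the same pair of thresholds was passed by 244 lower genes (50.9%). Among the 313 genes with a lower mean in the mutant, the median level was 60.4% of WT, near the members' 53.5% and 54.3%. Ordered from the smallest percent of WT, *Ear2* was number 101 and *Ear3* and *Ear12* were at number 107 of 479. By mean level over the 12 mice the members stood higher, at 6.49 FPKM for *Ear2* (number 47 from the top) and 9.28 FPKM for *Ear3* and *Ear12* (number 34), against a table median of 0.89 FPKM. Bulk RNA cannot tell fewer cells that express a gene from less RNA of that gene per cell.

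The members were lower in mutants of either sex. In males, *Ear2* was 8.94 ± 1.78 FPKM in WT and 5.23 ± 1.00 FPKM in mutants (SD, n = 3 each), 58.5% of WT. In females it was 7.97 ± 0.85 FPKM and 3.82 ± 2.05 FPKM (SD, n = 3 each), 47.9% of WT. *Ear3* and *Ear12* stood at 59.0% of WT in males and 49.1% in females. The difference between the sexes was small beside the spread of the mutant females. The interaction of genotype and sex, coded as the male minus the female genotype difference, was 0.14 on the log2 scale for *Ear2* (SE 0.22, 95% confidence interval −0.35 to 0.62, adjusted p = 0.962, limma) and 0.17 for *Ear3* and *Ear12* (SE 0.26, 95% confidence interval −0.42 to 0.75, adjusted p = 0.962, limma). The intervals reach beyond the size of the genotype difference itself, so unequal effects in males and females could not be resolved with 3 mice a group. In that fit 0 of 479 genes passed an adjusted p under 0.05, and 15 had an unadjusted p under 0.05.

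Reads behind these values could be recovered, because a gene's FPKM moves in steps of 1 read once its length is known. The *Ear2* values were whole reads, to within 0.09 of a read in every mouse, for a length of 715 bases, close to the 719 bases of the annotated transcript. The *Ear3* and *Ear12* values were whole, to within 0.10 of a read, for a length of 471 bases, the number of coding bases in *Ear2* and also in *Ear10*. No other length from 150 to 2499 bases, apart from neighbours and multiples, came closer than 0.21 of a read for *Ear2* or 0.27 of a read for *Ear3* and *Ear12*.

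At these lengths *Ear2* rested on 126, 147 and 180 reads in WT males 1, 2 and 3 and on 115, 112 and 147 reads in WT females 1, 2 and 3. In mutants it rested on 65, 86 and 79 reads in males 1, 2 and 3 and on 40, 42 and 105 reads in females 1, 2 and 3. The 40 reads of mutant female 1 have an exact 95% Poisson interval of 28.6 to 54.5 reads and the 105 reads of mutant female 3 one of 85.9 to 127 reads, so these 2 mutant females differed by more than counting error. Over 6 mice, the coefficient of variation of *Ear2* FPKM was 16.0% in WT mice and 36.2% in mutants, where counting alone gives 8.63% and 12.8%. Mice of 1 genotype thus varied beyond counting error, and the mutants covered a 2.57-fold range against 1.54-fold in WT mice. The intervals cover counting error only.

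*Ear3* and *Ear12* rested on almost as many reads as *Ear2*, in spite of the shorter length. They had 121, 133 and 168 reads in WT males 1, 2 and 3 and 108, 107 and 138 reads in WT females 1, 2 and 3. They had 61, 82 and 73 reads in mutant males 1, 2 and 3 and 38, 41 and 102 reads in mutant females 1, 2 and 3. *Ear2* had 1 to 14 reads more in every mouse. Over all mice the *Ear3* and *Ear12* row held 1172 reads and the *Ear2* row 1244, which is 94.2% of the reads on 65.9% of the length.

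**Figure D3:**
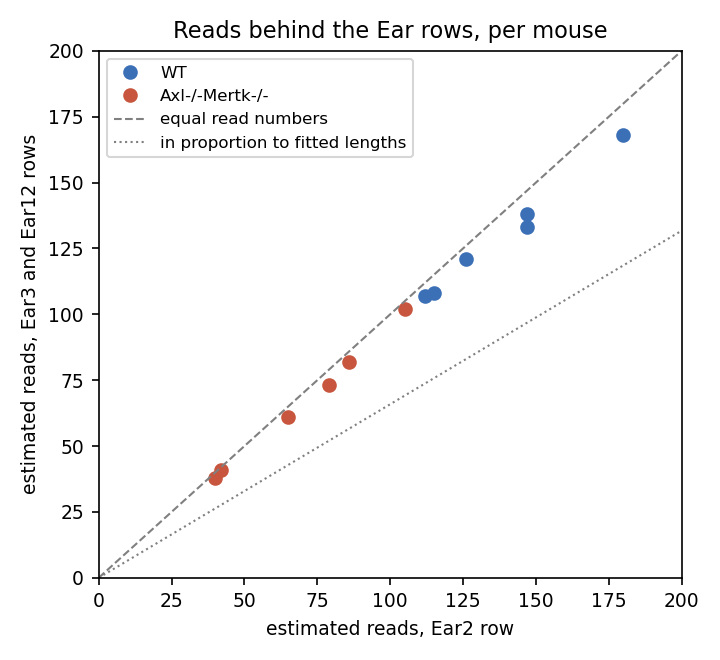
Estimated reads of the shared Ear3 and Ear12 rows (y axis) against those of the Ear2 row (x axis) in 12 mice, with lines for equal read numbers (dashed) and for reads in proportion to the fitted lengths (dotted). Every mouse lies just under the dashed line, at 90.5 to 97.6% of the Ear2 reads, and well above the dotted line.

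The ratio of *Ear3* to *Ear2* FPKM hardly moved between mice. It ranged from 1.37 to 1.48, with a mean of 1.42 ± 0.03 in WT mice and 1.45 ± 0.03 in mutants (SD, n = 6 each). The difference of the mean log2 ratio between genotypes was 0.02, p = 0.271 by a two-sided exact permutation test. The coefficient of variation of the ratio over 12 mice was 2.12%. Counting error alone would give a ratio of separately drawn reads an error of 10.7 to 22.6%, depending on the mouse. The rows therefore varied together more closely than separately counted reads do. The 3 symbols are not 3 independent observations of a lower Ear level, and the 2 distinct rows are not 2 independent ones. Which Ear gene the reads came from was not tested.

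The other genes of the superfamily did not add to the comparison. None of the 25 listed members and inhibitors, among them *Ear1*, *Ear6*, *Ear10*, the Ang genes that encode angiogenins and the ribonuclease inhibitor gene *Rnh1*, was in the table (0 of 25), and they were not analysed here. Of the 17 other table genes on chromosome 14, 2 lay within 10 Mb of *Ear2*. *Cdkn3*, which encodes a cyclin-dependent kinase phosphatase, was 2.66 Mb away and stood at 148% of WT, and *Cdhr1*, a cadherin-related gene, was 7.004 Mb away and stood at 70.3% of WT.

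Cells that are known to express Ear genes were represented by few markers. Of 9 eosinophil markers 1 was in the table. This was *Ccr3*, the eotaxin receptor, at 0.285 ± 0.057 FPKM in WT mice and 0.156 ± 0.055 FPKM in mutants (SD, n = 6 each), 54.7% of WT (adjusted p = 0.0107, limma). The *Ccr3* values were low, at 17 to 26 reads in WT mice and 6 to 17 reads in mutants, and did not overlap between genotypes on the FPKM scale. The granule protein genes *Prg2* and *Epx* were not analysed here. Of 13 alveolar macrophage markers 2 were in the table, and they pointed in different directions. *Atp6v0d2*, a subunit of the vacuolar proton pump, was higher in mutants at 176% of WT (adjusted p = 0.00943, limma), and *Marco*, a scavenger receptor, stood at 39.6% of WT with overlapping genotypes (adjusted p = 0.068, limma). Of 13 markers of Ly6C-low monocytes 2 were in the table, with *Adgre4*, an adhesion G protein-coupled receptor, lower at 30.8% of WT (adjusted p = 0.000709, limma) and *Cx3cr1*, the fractalkine receptor, higher at 174% (adjusted p = 0.000636, limma). The summed level of the alveolar macrophage pair was 1.27 to 1.79 FPKM in WT mice and 1.23 to 3.31 FPKM in mutants. That of the monocyte pair was 1.18 to 1.65 FPKM in WT mice and 1.60 to 2.25 FPKM in mutants. Most of each sum came from the gene that was higher in mutants, *Atp6v0d2* or *Cx3cr1*, so the sums say little of *Marco* or *Adgre4*. None of 12 markers of Ly6C-high monocytes and neutrophils was present.

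Mature tissue macrophage markers were better covered. Of 13 listed genes 7 were in the table. In the mutant, 7 of these 7 fell at an adjusted p under 0.05 (limma), a call that 61.8% of all 479 genes shared. The list was chosen with earlier results of these data known. The study had already reported *C1qa*, *Siglec1*, *Slc40a1*, *Cd163*, *Vcam1* and *Spic* as lower in the mutant thymus. The 7 of 7 is therefore not independent support. Their median was 45.3% of WT, beside 67.6% over all 479 genes and 60.4% over the 313 genes with a lower mean in the mutant. *Timd4*, a phosphatidylserine receptor of resident macrophages, stood at 43.7% of WT, *Spic*, a transcription factor of iron-recycling macrophages, at 45.3%, *Vcam1*, an adhesion molecule, at 60.8% and *Cd163*, the haemoglobin scavenger receptor, at 17.7%. Their summed level was 134 to 209 FPKM in WT mice and 78.8 to 122 FPKM in mutants, most of it from *C1qa* and *Vcam1*. The Ear level thus fell beside a macrophage marker list and beside the 1 eosinophil marker present. The part that numbers of either cell type play in the Ear difference was not tested.

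**Figure D4:**
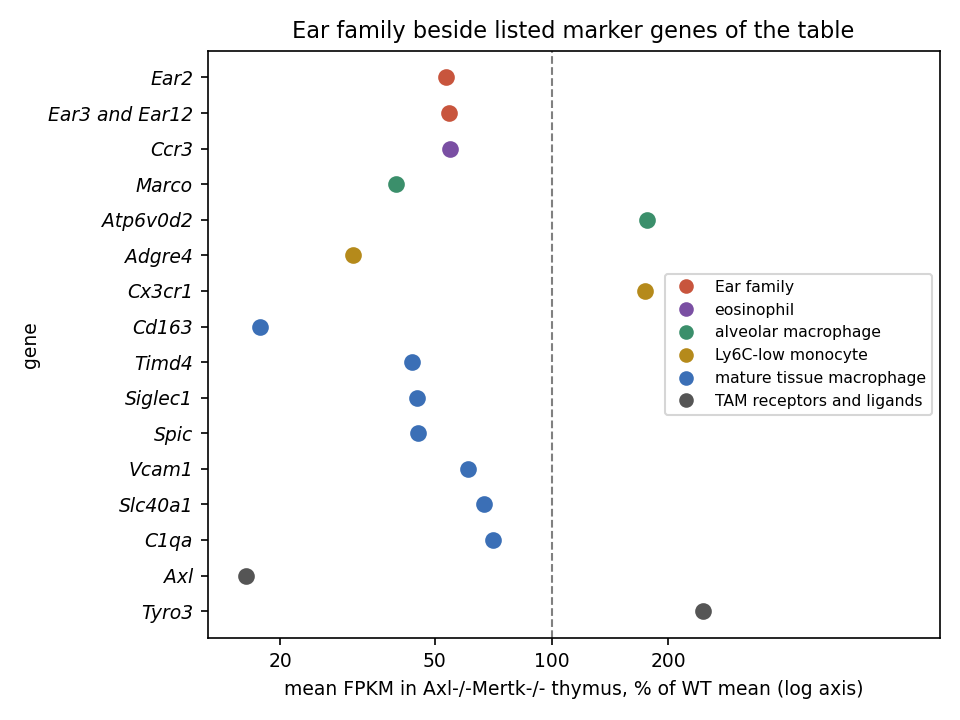
Mean FPKM in Axl-/-Mertk-/- thymus as percent of the WT mean (x axis, log scale, dashed line at 100%) for the Ear genes and every listed gene present in the table (y axis), coloured by list. The Ear genes at 53.5 and 54.3% lie next to Ccr3 at 54.7% and inside the range of the 7 macrophage markers, from Cd163 at 17.7% to C1qa at 70.7%.

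Within each genotype, the genes whose level followed the Ear genes most closely were sought by Pearson's r over the 12 mice, after the mean of each genotype was removed from log2(FPKM + 0.1). The r values are descriptions over mice that share library depth and preparation. The 3 genes given for each row are the highest of a search through the table of 479 genes. Picking the highest of so many raises their r. *Clec1b*, which encodes the C-type lectin receptor CLEC-2, came first for *Ear2* (r = 0.90) and for *Ear3* and *Ear12* (r = 0.91). *Clec1b* was 2.08 ± 0.63 FPKM in WT mice and 0.918 ± 0.479 FPKM in mutants (SD, n = 6 each), 44.1% of WT, without overlap. Its values were lowest in mutant females 1 and 2, at 0.297 and 0.501 FPKM, the same mice that were lowest in *Ear2*. *Clec1b* rested on 45 to 89 reads in WT mice and 8 to 41 reads in mutants.

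*Abcc9*, a subunit of ATP-sensitive potassium channels, came next (r = 0.89 for *Ear2* and 0.88 for *Ear3* and *Ear12*), but was higher in mutants at 143% of WT, so that with the genotype means left in its r with *Ear2* was −0.18. The last place went to *Vtn*, the gene of vitronectin, for *Ear2* (r = 0.84, 162% of WT), and to *Ccr3* for *Ear3* and *Ear12* (r = 0.85). Among mutants the *Ccr3* values rose nearly in the order of *Ear2*, but on only 6 to 17 reads a mouse. Steps between neighbours in that order are within counting error. *Ccr3* had 0.079 and 0.104 FPKM in mutant females 1 and 2, 0.156 FPKM in mutant male 1, 0.173 FPKM in mutant male 3 and 0.205 FPKM in mutant male 2, which is the rising order of their *Ear2* values. It had 0.218 FPKM in mutant female 3, whose *Ear2* value was just under that of mutant male 2. Among WT mice the order was not kept, since WT male 2 had the second highest *Ear2* value and the lowest *Ccr3* value, 0.223 FPKM. Of the macrophage markers in the table, *C1qa* (r = 0.76 with *Ear2*) and *Siglec1* (r = 0.75) were closest, and *Cd163* had an r of 0.08. *Cd163* had only 0.043 to 0.169 FPKM in mutants, around the added constant of 0.1, so counting error bears on its r.

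**Figure D5:**
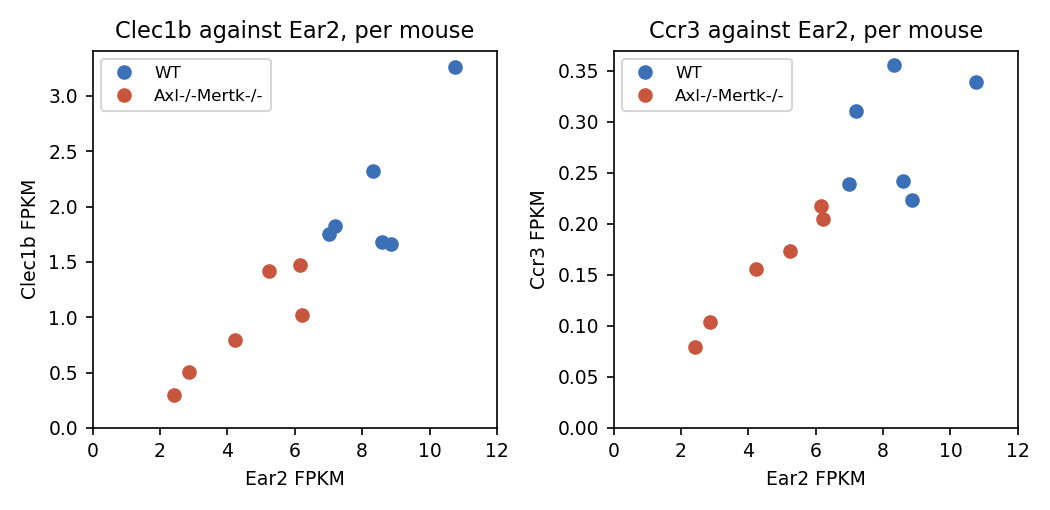
Clec1b (left) and Ccr3 (right) FPKM (y axes) against Ear2 FPKM (x axes) in 12 mice, coloured by genotype. Mutant mice spread from mutant female 1 at the lower left, with 0.297 FPKM of Clec1b and 0.079 FPKM of Ccr3, up to the edge of the WT mice.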

How the data were processed

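Libraries of poly(A) RNA from whole thymus were read as single 50-base reads. Per the labels and the study's methods, the authors used CASAVA (1.8.2), STAR (2.5.3a, mm10) and HOMER (4.10.4), which gave FPKM over the exons of the top isoform, and deposited log2(FPKM + 5) values for 479 genes. The annotation, the treatment of reads that match several genes, the strand setting and the choice of the 479 genes are not given in the sources used here. FPKM was taken back as 2 to the power of the value minus 5. Differences were fitted with limma 3.58.1 (R 4.3.3) on the deposited scale, mutant minus WT, with sex in the model, and p-values were adjusted by Benjamini-Hochberg over all 479 genes; a call was an adjusted p under 0.05. No count test was run here. Depths came from 92 of 323 genes with 1 annotated length whose values were close to whole reads, and differed by at most 0.12% between gene subsets. Read numbers, given with exact 95% Poisson intervals, followed from 2350 lengths tried. Windows and coding parts came from GENCODE vM21, and were aligned with Biopython 1.88. Named genes were the members, the listed genes in the table, *Axl*, the table genes near *Ear2* and the 3 genes most like each member. Members and lists were chosen with earlier results of these data known. Each sample was 1 mouse. The title of WT male 1 alone ends in _b, whose meaning the labels do not give. The scripts were tested on simulated data. Alternatives were other constants, leaving sex out of the model, an intensity trend, a filter at a mean of 1 FPKM, each sex alone, a permutation within sex, each mouse left out, equality at 2 decimals and other window lengths.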

Additional observations from a re-analysis of the deposited data

How the results depend on the processing

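The genotype difference kept its direction and stayed under an adjusted p of 0.05 in 20 of 20 alternatives for *Ear2* and in 20 of 20 for *Ear3* and *Ear12*, with adjusted p up to 0.0386 and 0.0433 in females alone (limma). Leaving out 1 mouse gave log2 differences from −0.59 (without mutant female 3) to −0.45 (without mutant female 1) for *Ear2* and from −0.67 to −0.51, without the same mice, for *Ear3* and *Ear12*. *Ear2* dropped to a size under 0.5 on the deposited scale without any 1 of WT male 3, WT females 2 and 3, mutant male 1 and mutant females 1 and 2, and in males alone (−0.44), where *Ear3* and *Ear12* stood at −0.50, just under that size. The interaction with sex missed the threshold in 14 of 14 alternatives per member. Genes past both thresholds numbered 15 lower and 14 higher, against 57 and 51 with a constant of 1 and 244 and 141 with a constant of 0.1. The share of *Ear2* windows found in other annotated genes was 54.0% at 36 bases and 23.4% at 75 bases, against 41.5% at 50. *Ear3* and *Ear12* were equal in 12 mice also at 2 decimals. No paired analysis was possible because the mouse numbers are not shared between genotypes. Depth limits single mice to read numbers of 38 to 180.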
